A study of Mus musculus with 12 samples.

Results

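The genes described here form the circadian clock of the mouse liver together with its regulators and several of its rhythmic outputs. They are 30 genes chosen by symbol from knowledge of the clock, with earlier results of these data known, and all 30 were found among the 35275 gene rows of the table. Liver RNA of 12 male mice was sequenced, 1 library a mouse, in 4 groups of 3 mice. WT mice and Pctp-/- mice, which lack the phosphatidylcholine transfer protein PC-TP in the whole body, were fed either chow or a methionine- and choline-deficient (MCD) diet, a diet used to cause steatosis and liver damage. The genotypes were compared on each diet, and the diets within each genotype. Age, strain background, and the hour and feeding state in which these livers were taken are not given in the sources used here, so a difference in clock gene level between groups and a difference in hour of collection cannot be told apart.

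The clock is a feedback loop of transcription. BMAL1, the product of Arntl, pairs with CLOCK or NPAS2 and activates genes through E-box sequences, among them the Period and Cryptochrome genes, whose products then repress their own activators. The nuclear receptors REV-ERB alpha and beta (Nr1d1 and Nr1d2) repress Arntl through ROR elements, which ROR alpha (Rora) activates, and the factors DBP, TEF and HLF activate genes through D-boxes that NFIL3 represses. In mouse liver the loop drives daily rhythms of metabolic genes, and feeding time is a strong cue for its phase.

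These sequences show what the regulatory elements look like in genes whose levels the comparisons turn on. Letters were searched on both strands in promoter windows of the RefSeq table for GRCm38.p6, from 250 bases before to 50 bases after each start, and 24 of the 30 genes had at least 1 window. The remaining 6 were Per2, Bhlhe40, Csnk1d, Wee1, Klf10 and Btrc. An E-box was read as CACGTG, an E-prime box as CACGTT, a D-box as TTATGTAA or TTACGTAA, and a ROR element as TAGGTCA. An E-box was present in windows of 7 of the 24 genes (Bhlhe41, Ciart, Cipc, Cry1, Lonrf3, Per1 and Tef), against 8.09% of all 27025 genes with a window. The E-prime box was in 3 (Cry1, Cry2 and Nr1d1) against 5.44%, the D-box in 1 (Per3) against 1.23%, and the ROR element in 2 (Arntl and Nfil3) against 2.97%. Stretches upstream of the RefSeq starts of 5 genes are written in lower case on the minus strand, from which all 5 are transcribed, with the searched letters in capitals. Those of Per3, Nr1d1 and Nfil3 run up to the start, and those of Ciart and Bhlhe41 end 23 and 138 bases before it, where the GENCODE gene begins. The stretch of Nfil3, with its ROR element, lies inside the GENCODE gene, which begins at base 52981073 on the minus strand. Per3 (chr4:151044666-151044915) has D-box letters whose first bases lie 205 and 158 bases before its start. Ciart (chr3:95882252-95882478) has E-box letters at 116, 58 and 44 bases before the start, and Bhlhe41 (chr6:145865559-145865670) at 153 bases. Nr1d1 (chr11:98775378-98775627) has an E-prime box, read as AACGTG on the strand shown, 28 bases before the start, and Nfil3 (chr13:52981040-52981062) a ROR element, read as TGACCTA. In these stretches no searched element overlapped another.
Per3: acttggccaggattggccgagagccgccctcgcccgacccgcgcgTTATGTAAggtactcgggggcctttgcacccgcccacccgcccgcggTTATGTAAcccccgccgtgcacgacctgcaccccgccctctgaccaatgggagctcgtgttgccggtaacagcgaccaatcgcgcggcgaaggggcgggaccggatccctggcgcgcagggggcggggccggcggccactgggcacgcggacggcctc
Ciart: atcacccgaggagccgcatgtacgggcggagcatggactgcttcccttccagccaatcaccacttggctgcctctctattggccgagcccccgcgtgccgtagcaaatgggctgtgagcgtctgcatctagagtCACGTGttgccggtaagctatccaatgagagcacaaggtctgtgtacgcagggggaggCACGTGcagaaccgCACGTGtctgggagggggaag
Bhlhe41: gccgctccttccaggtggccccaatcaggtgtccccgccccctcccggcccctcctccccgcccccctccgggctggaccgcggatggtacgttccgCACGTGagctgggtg
Nr1d1: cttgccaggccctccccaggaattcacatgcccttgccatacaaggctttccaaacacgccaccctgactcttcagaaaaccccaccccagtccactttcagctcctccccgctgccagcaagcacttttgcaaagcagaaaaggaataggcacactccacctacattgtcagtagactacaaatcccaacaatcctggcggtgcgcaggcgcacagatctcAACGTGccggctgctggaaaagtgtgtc
Nfil3: gcgctcggaacTGACCTActaac
A match of letters is a description of the sequence and was not tested as a binding site.

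The deposited values are FPKM, fragments per gene corrected for gene length and for library depth, so levels can be set beside each other between genes. Uniquely mapped reads per library were 30486576 to 55179468 on chow and 33463498 to 46246856 on MCD. The share of uniquely mapped reads was 77.6 to 79.4% in the chow libraries and 85.7 to 87.5% in the MCD libraries, and the error rate was 0.03% against 0.01%, so the diet and what set these measures apart cannot be told apart. Pctp, the targeted gene, was at 2.25, 1.21 and 2.65 FPKM in WT mice on chow and at 0.566, 0.364 and 0.330 in Pctp-/- mice on chow. On MCD it was at 7.90, 5.10 and 3.61 FPKM in WT and 0.156, 0.329 and 0.293 in Pctp-/- mice, and the genotypes did not overlap on either diet. The hepatocyte markers Alb, Apoa1, Ttr and Cyp2e1 summed to 41128 to 46203 FPKM per library on chow. On MCD they summed to 55109 to 62867 in WT and 70645 to 77262 in Pctp-/- mice, without overlap. One by one, 0 of the tested marker genes of hepatocytes, macrophages, stellate, bile duct and endothelial cells and lymphocytes passed the test by genotype on either diet. In whole liver, less RNA per cell and fewer cells of a type cannot be told apart.

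All 30 genes reached the minimum for testing, a mean of 0.5 FPKM across the 12 libraries, and 18 averaged 5 FPKM or more. Their means ran from 0.750 FPKM for Npas2 to 107.8 for Por, the cytochrome P450 oxidoreductase that supplies electrons to P450 enzymes. WT mice on chow had the highest group mean for 18 of the 30 genes, Pctp-/- mice on chow for 6, WT mice on MCD for 5 and Pctp-/- mice on MCD for 1. The lowest group mean was in WT mice on chow for 3 genes, in Pctp-/- mice on chow for 11, in WT mice on MCD for 9 and in Pctp-/- mice on MCD for 7. The genes were also sorted by textbook phase into 5 dawn genes, whose levels in mouse liver peak from late night to early morning (Arntl, Clock, Npas2, Nfil3 and Cry1), 19 day-to-dusk genes, which peak from midday to early night, and 6 with a weak or variable rhythm that were not classed.

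**Figure D1:**
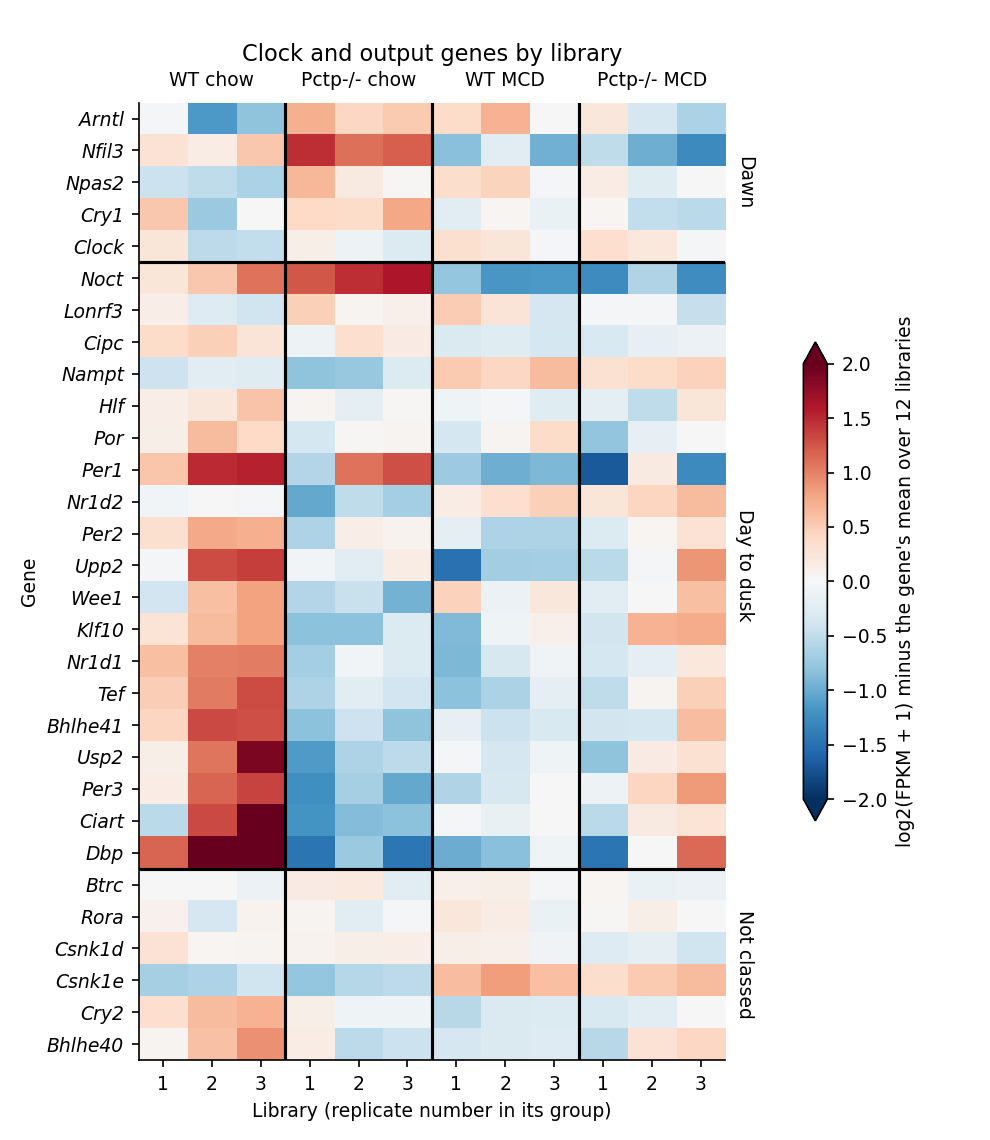
Each row is 1 of the 30 genes and each column 1 of the 12 mice; colour is log2(FPKM + 1) minus the gene's mean over all 12 libraries, cut at 2 on each side, with rows grouped by phase class. Most day-to-dusk genes are above their mean in WT mice on chow and below it in Pctp-/- mice on chow, and the dawn genes Arntl and Npas2 show the opposite colours.

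On chow, Dbp, Per3 and Bhlhe41 were lower in Pctp-/- than in WT mice, with a group mean FPKM 10.6-fold, 5.84-fold and 9.08-fold lower, and 0 of the 30 genes passed the test in the other direction. Of all 12466 genes tested, 0.0802% were lower and 0.0562% higher at an adjusted p under 0.05 (limma, Benjamini-Hochberg over all genes tested). An unadjusted p under 0.05 was reached by 20 of the 30 genes, 15 of them lower and 5 higher in Pctp-/- mice, beside 6.98% of all genes. The values of the genotypes did not overlap for 14 genes that were lower and 4 that were higher in Pctp-/- mice, beside 5.38% and 5.17% of all genes. The median log2 difference, Pctp-/- minus WT, was -0.53 over the 30 genes and 0.006 over all genes tested. Without replicate 1 of the WT mice on chow 7 of the 30 genes passed, without any other single chow library 0 passed, and without single MCD libraries 0 to 3 passed. With no filter, with quantile or median-of-ratios scaling, with no trend and with only the 6 chow libraries, 0 passed. Of all genes tested, 17 passed with every library and 34 without replicate 1 of the WT mice on chow.

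Among the D-box factors, Dbp stood at 39.5, 98.3 and 86.0 FPKM in the 3 WT mice on chow, at 5.58, 9.85 and 5.64 in Pctp-/- mice on chow, at 8.10, 9.09 and 16.1 in WT mice on MCD, and at 5.59, 17.1 and 38.5 in Pctp-/- mice on MCD. DBP is the D-box activator with one of the widest daily swings in liver. Every WT mouse on chow was above every Pctp-/- mouse on chow for Dbp and above every mouse on MCD, and replicate 3 of the Pctp-/- mice on MCD came nearest, at 38.5 against 39.5. The log2 difference on chow was -3.18 (standard error 0.54, adjusted p = 0.0492 from limma). Tef was at 30.5, 45.5 and 54.8 FPKM in WT and 13.7, 18.3 and 16.3 in Pctp-/- mice on chow, then 11.7, 13.5 and 18.6 in WT and 14.8, 22.5 and 30.4 in Pctp-/- mice on MCD. As for Dbp, every WT mouse on chow was above the other 9 mice, and the difference on chow was -1.35 (standard error 0.26, adjusted p = 0.0859 from limma). Hlf, the third activator of this family, differed by -0.34 (adjusted p = 0.758 from limma), with 9.82 ± 1.80 FPKM (SD, n = 3) in WT and 7.48 ± 0.725 in Pctp-/- mice, none of which reached the lowest WT mouse, at 8.48. Nfil3, the repressor of the same sites, had the opposite order on chow, at 17.3, 15.6 and 20.7 FPKM in WT and 40.6, 31.0 and 33.3 in Pctp-/- mice. Its MCD values were 7.36, 11.9 and 6.64 FPKM in WT and 9.45, 6.56 and 5.14 in Pctp-/- mice. Nfil3 was thus higher in every Pctp-/- mouse on chow than in any of the other 9 mice, by 0.93 over WT (standard error 0.22, adjusted p = 0.197 from limma).

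Of the Period genes, which encode repressors of CLOCK and BMAL1, Per3 was at 4.07, 9.30 and 10.7 FPKM in WT mice and 0.969, 1.89 and 1.26 in Pctp-/- mice on chow, and at 2.03, 2.67 and 3.55 in WT and 3.26, 5.16 and 7.28 in Pctp-/- mice on MCD. The genotypes were apart on chow and overlapped on MCD, where WT mice had the lower mean. The difference on chow was -1.86 (standard error 0.31, adjusted p = 0.0478 from limma). Per2 was at 6.04 to 8.48 FPKM in WT and 2.65 to 5.19 in Pctp-/- mice on chow, without overlap, a difference of -0.74 (adjusted p = 0.368 from limma). Per1, which glucocorticoids and feeding cues also induce directly, varied widely between mice, from 11.6 to 24.0 FPKM in WT and from 4.72 to 19.9 in Pctp-/- mice on chow. Its interval for the difference, -1.72 to 0.52, spans zero. For the Cryptochromes, Cry2 was at 11.6, 14.5 and 15.2 FPKM in WT and 9.79, 8.40 and 8.37 in Pctp-/- mice on chow, apart by -0.58 (standard error 0.13, adjusted p = 0.171 from limma). Cry1, a dawn gene, was at 2.11 to 6.51 and 5.67 to 7.80 FPKM, and the groups overlapped.

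**Figure D2:**
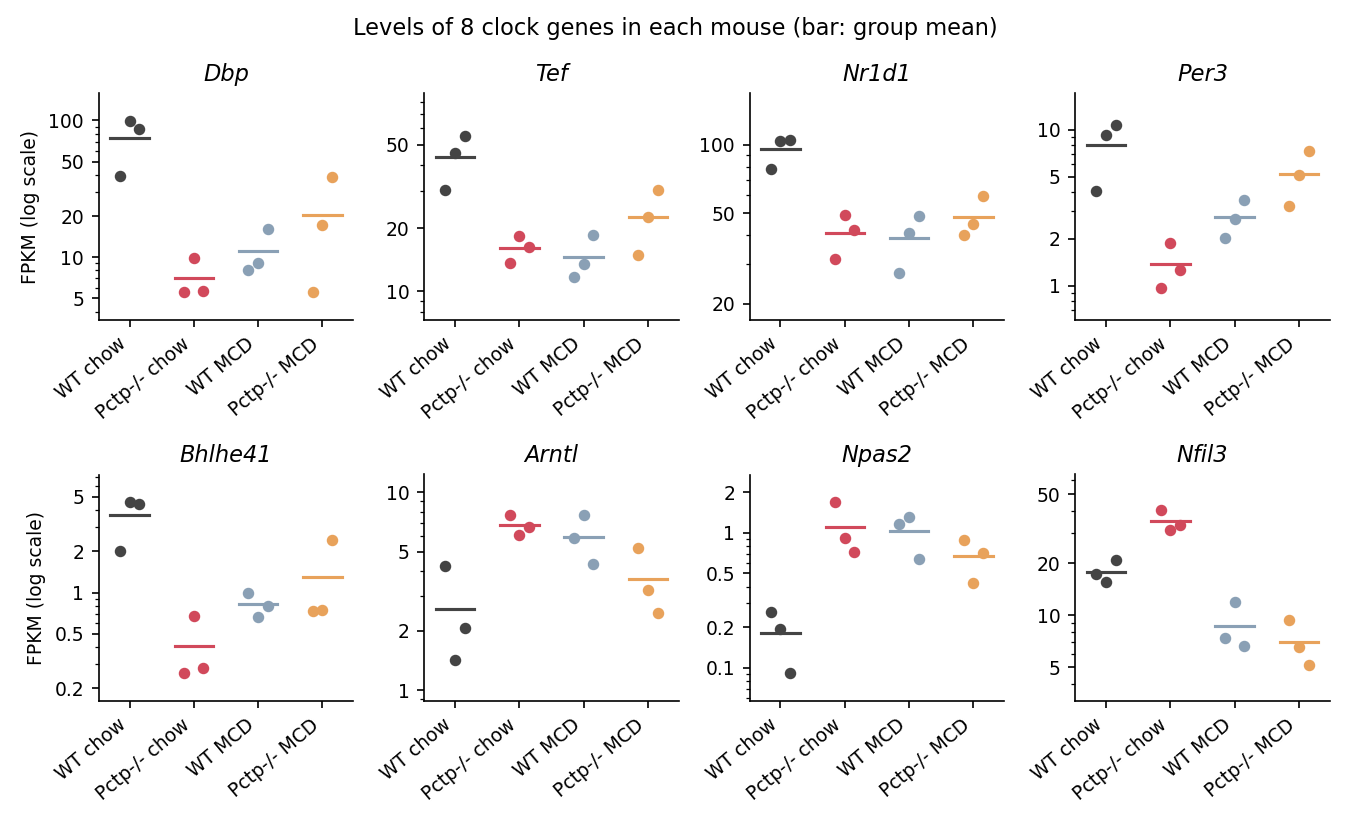
FPKM on a log axis for 8 clock genes, with 1 point per mouse, 3 mice a group, and a bar at each group mean. WT mice on chow lie above every other group for Dbp, Tef and Nr1d1 and below Pctp-/- mice on chow for Arntl, Npas2 and Nfil3.

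Bhlhe41 encodes DEC2, which represses E-box genes. Its level was 2.00, 4.56 and 4.46 FPKM in WT and 0.259, 0.671 and 0.282 in Pctp-/- mice on chow, against 1.00, 0.661 and 0.797 in WT and 0.729, 0.752 and 2.41 in Pctp-/- mice on MCD. On chow the genotypes lay apart, by -1.69 (standard error 0.28, adjusted p = 0.0453 from limma). A pseudocount of 1 understates the difference of a gene at such low FPKM. Ciart, which encodes the repressor CHRONO, ranged from 0.911 to 13.3 FPKM over WT mice, 14.6-fold and more than any other of the 30 genes in any group, and from 0.205 to 0.571 over Pctp-/- mice on chow. Replicate 1 of the WT mice was its low value, the groups still did not overlap, and the difference of -2.01 (standard error 0.52) had an adjusted p of 0.254 from limma. Bhlhe40 (DEC1) differed by -0.79 with overlapping groups, and Cipc, a CLOCK-interacting repressor, by -0.24 (adjusted p = 0.438 and 0.737 from limma).

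The REV-ERB gene Nr1d1 was at 78.3, 103.8 and 105.0 FPKM in WT and 31.5, 49.2 and 42.2 in Pctp-/- mice on chow, and at 27.2, 40.7 and 48.5 in WT and 40.1, 45.0 and 59.5 in Pctp-/- mice on MCD. All 3 WT mice on chow stood above the other 9 mice. The difference on chow was -1.22 (standard error 0.22, adjusted p = 0.0754 from limma). Its paralog Nr1d2 was even across WT mice on chow, at 16.6, 17.4 and 17.0 FPKM, and lower in Pctp-/- mice, at 7.98, 11.8 and 10.4, without overlap (-0.72, adjusted p = 0.102 from limma). On MCD Nr1d2 was at 19.2, 22.1 and 24.5 FPKM in WT and 20.5, 23.6 and 27.3 in Pctp-/- mice, so that every mouse on MCD was above every mouse on chow. Rora, the activator at the same elements, was at 4.99 to 7.02 FPKM in WT and 5.45 to 6.87 in Pctp-/- mice on chow, with an interval for the difference of -0.31 to 0.29.

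The activators of the loop stood the other way round on chow. Arntl was at 4.26, 1.42 and 2.06 FPKM in WT and 7.70, 6.12 and 6.67 in Pctp-/- mice on chow, and at 5.91, 7.66 and 4.34 in WT and 5.26, 3.22 and 2.45 in Pctp-/- mice on MCD. Npas2 was at 0.258, 0.194 and 0.0913 FPKM in WT and 1.69, 0.918 and 0.719 in Pctp-/- mice on chow, and at 1.17, 1.30 and 0.645 in WT and 0.879, 0.423 and 0.709 in Pctp-/- mice on MCD. For both genes the chow groups did not overlap, with Pctp-/- mice higher by 1.20 for Arntl and 0.81 for Npas2 (adjusted p = 0.195 and 0.187 from limma). Their group mean FPKM was 2.65-fold and 6.12-fold higher, and the pseudocount of 1 understates the difference of Npas2 at its low FPKM. Clock itself was at 4.73 to 8.69 FPKM in WT and 5.74 to 7.93 in Pctp-/- mice on chow, with an interval for the difference of -0.26 to 0.59.

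Of the enzymes that act on clock proteins, Usp2, a deubiquitinase, was at 2.44, 5.60 and 10.6 FPKM in WT and 0.437, 1.06 and 1.20 in Pctp-/- mice on chow. The groups were apart, by -1.78 (standard error 0.38, adjusted p = 0.155 from limma). The kinases that phosphorylate PER, Csnk1d and Csnk1e, and Btrc, which encodes a ubiquitin ligase subunit that takes PER to degradation, differed by -0.02, -0.06 and 0.08, with intervals within -0.32 and 0.35. Lonrf3, a RING finger gene at low level, differed by 0.38 with overlapping groups.

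Among the rhythmic outputs, Klf10, a Krüppel-like transcription factor, was at 12.6, 16.3 and 18.5 FPKM in WT and 5.35, 5.36 and 8.27 in Pctp-/- mice on chow, apart by -1.20 (adjusted p = 0.254 from limma). The cell cycle kinase gene Wee1 was also apart, at 1.88 to 5.61 and 0.962 to 1.77 FPKM (adjusted p = 0.368 from limma). Noct, the gene of the NADPH phosphatase nocturnin, was the 1 day-to-dusk gene with higher, separate values in Pctp-/- mice on chow, at 5.63, 6.76 and 7.54 FPKM against 2.30, 3.05 and 4.91 in WT mice (0.83, adjusted p = 0.307 from limma). Upp2, a uridine phosphorylase, was at 35.3, 90.7 and 96.0 FPKM in WT and 34.6, 30.7 and 39.9 in Pctp-/- mice, and replicate 1 of the WT mice overlapped the Pctp-/- mice. Por was 1.40-fold and Nampt, which makes NAD by salvage, 1.27-fold lower in mean FPKM in Pctp-/- mice (adjusted p = 0.723 and 0.658 from limma).

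**Figure D3:**
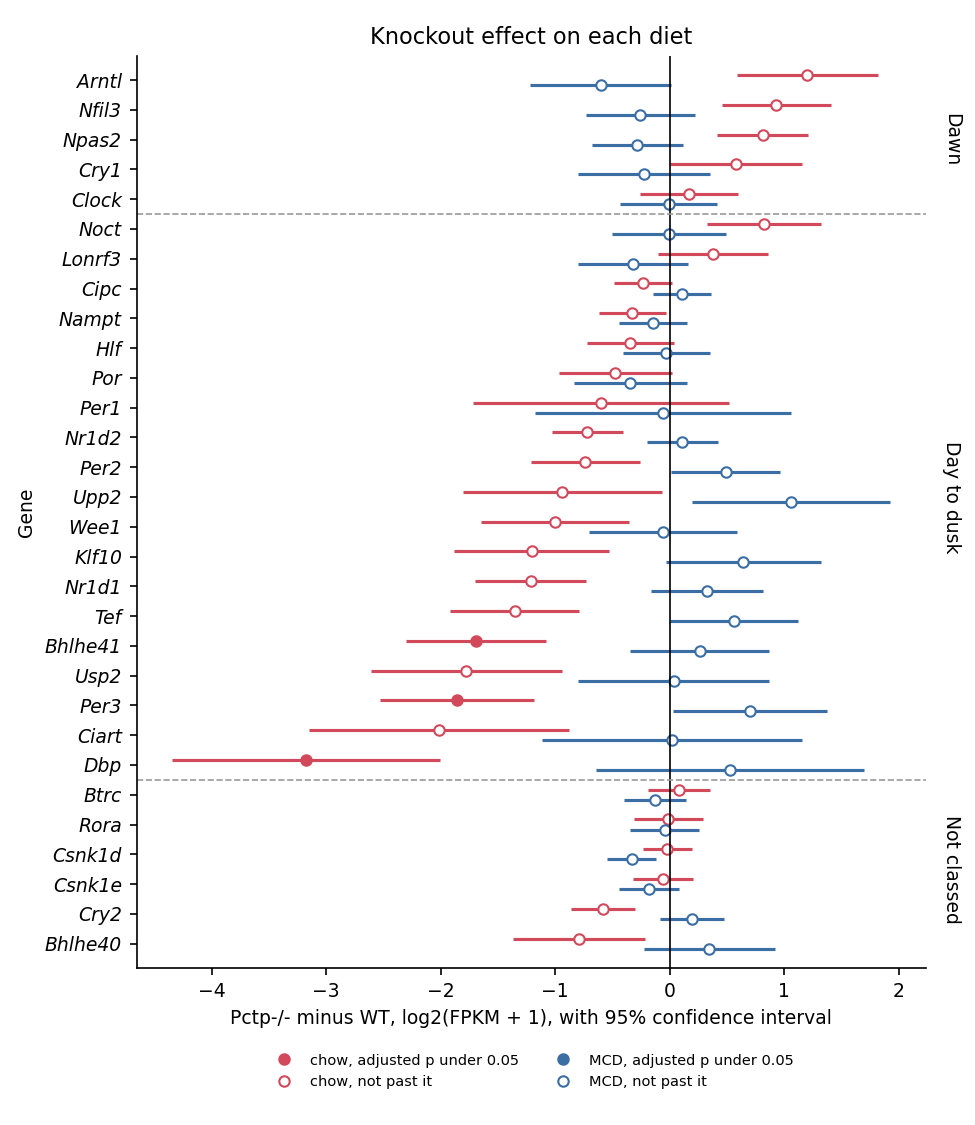
Log2 difference, Pctp-/- minus WT, on log2(FPKM + 1) for the 30 genes on chow (red) and on MCD (blue), with 95% confidence intervals from limma and filled points for an adjusted p under 0.05. On chow 3 points are filled, Dbp, Per3 and Bhlhe41, and on MCD 0 are.

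Read by phase, all 5 dawn genes had a positive difference on chow, 4 of them at an unadjusted p under 0.05 and 3 with separate groups, and their median was 0.81. Of the 19 day-to-dusk genes 17 had a negative difference, 13 of them at an unadjusted p under 0.05 and the same number with separate groups, and their median was -0.94. The exceptions were Noct and Lonrf3. The 6 genes not classed had a median of -0.04. Of all genes tested, 6.98% reached an unadjusted p under 0.05 in either direction. Separate groups were found for 5.17% of all genes with higher and 5.38% with lower values in Pctp-/- mice. These classes are a description, and no test was made over them.

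A per-mouse summary was the mean centred log2 value of the 19 day-to-dusk genes minus that of the 5 dawn genes. It was 0.066, 1.37 and 1.25 in WT mice on chow and -1.22, -0.57 and -0.66 in Pctp-/- mice on chow, so that replicate 1 of the WT mice lay nearest to the Pctp-/- mice without reaching them. On MCD it was -0.35, -0.56 and 0.065 in WT and -0.53, 0.40 and 0.74 in Pctp-/- mice, which overlapped. The group values were 0.894 ± 0.719 (SD, n = 3) in WT mice on chow, -0.816 ± 0.351 in Pctp-/- mice on chow, -0.279 ± 0.315 in WT mice on MCD and 0.201 ± 0.658 in Pctp-/- mice on MCD.

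**Figure D4:**
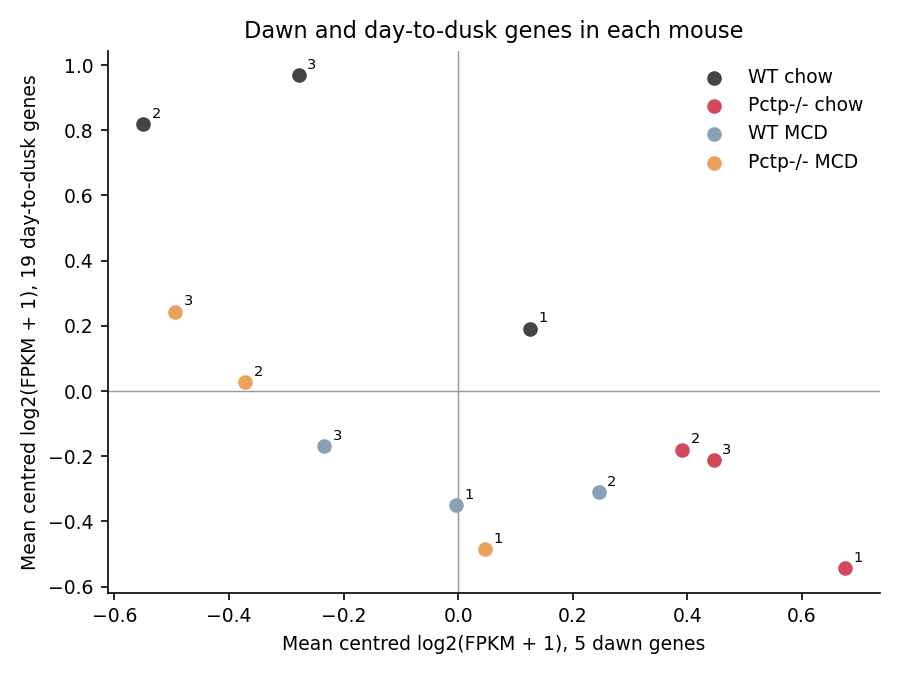
Mean centred log2(FPKM + 1) of the 5 dawn genes (x axis) and of the 19 day-to-dusk genes (y axis) in each of the 12 mice, coloured by group and marked with the replicate number. WT mice on chow 2 and 3 are at the upper left, the 3 Pctp-/- mice on chow at the lower right, and WT mouse 1 on chow lies between them.

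The mice of a group also differed from each other in several of these genes. Within each group, the mouse with the highest Dbp was taken, which was replicate 2 on chow and replicate 3 on MCD in both genotypes. That mouse had the lowest Arntl, Nfil3 and Rora of its group in 4 of 4 groups, beside 1.84% of all 12465 other genes tested. It had the highest Nr1d2 in 4 of 4 groups, beside 0.594% of all genes. The genes lowest in that mouse in at least 3 groups were 7 of 29, beside 14.1% of all genes, with Clock, Cry1, Csnk1d and Lonrf3 added. Of these, Lonrf3 is a day-to-dusk gene, and Rora and Csnk1d differed by only -0.01 and -0.02 between genotypes on chow. Those highest in at least 3 groups were 9, beside 6.80% of all genes, with Per2, Per3, Nr1d1, Tef, Bhlhe41, Nampt, Por and Cipc added. All 9 are day-to-dusk genes, as are 18 of the 29. In that class, Per1 and Noct were highest in 0 groups and Usp2 in 1. The hours of collection of single mice are not given, and their part in these orders was not tested.

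The 30 genes varied between the mice of a group, by more at the median than all genes tested. The median within-group SD on the log2 scale was 0.268 for the 30 genes and 0.151 for all genes in WT mice on chow, 0.226 and 0.158 in Pctp-/- mice on chow, 0.186 and 0.138 in WT mice on MCD, and 0.375 and 0.113 in Pctp-/- mice on MCD. In Pctp-/- mice on MCD Dbp ranged 6.88-fold, Per1 5.20-fold and Noct 4.81-fold from the lowest to the highest mouse. Noct was low there, at 0.174, 0.836 and 0.175 FPKM, and its SD on the log2 scale, 0.372, was no wider than the median of the 30 genes.

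On MCD, 0 of the 30 genes differed between Pctp-/- and WT mice at an adjusted p under 0.05 in limma, beside 0.818% of all genes tested. An unadjusted p under 0.05 was reached by 5 genes, Csnk1d lower and Upp2, Per3, Per2 and Tef higher in Pctp-/- mice, beside 16.3% of all genes, and 2 genes, Csnk1d and Upp2, had separate groups, beside 26.6%. Both shares are near or under those of all genes. Upp2 was at 12.2, 21.9 and 22.2 FPKM in WT and 24.6, 35.5 and 67.5 in Pctp-/- mice on MCD, and every Pctp-/- mouse was above every WT mouse (1.06, standard error 0.40, adjusted p = 0.214 from limma). Csnk1d was at 23.2, 22.7 and 20.1 FPKM in WT and 17.5, 18.5 and 15.8 in Pctp-/- mice (-0.33, standard error 0.10, adjusted p = 0.131). Day-to-dusk genes had a median difference of 0.11, with 12 above and 7 below zero, and the 5 dawn genes were all below zero with a median of -0.26. Over all genes tested the median was -0.093. After quantile or median-of-ratios scaling, Clock and the day-to-dusk genes Per1, Hlf, Noct and Wee1 were above zero. Clock was also above zero without some single MCD libraries. Without replicate 3 of the Pctp-/- mice on MCD, the day-to-dusk genes Ciart, Usp2, Dbp and Bhlhe41 were below zero. Dbp differed by 0.53 with a wide interval, -0.64 to 1.70, and by -0.09 without replicate 3 of the Pctp-/- mice.

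In WT mice, 15 of the 30 genes fell and 4 rose with the MCD diet, beside 22.5% and 34.5% of all genes tested in limma. This comparison shares the WT mice on chow with the knockout comparison on chow, so its direction is not a separate observation of them. The Period and Cryptochrome genes Per1 (-2.06, standard error 0.51, adjusted p = 0.00456), Per2 (-1.07), Per3 (-1.20) and Cry2 (-0.93, adjusted p = 7.58e-05) fell. Per1 went from 11.6, 23.2 and 24.0 FPKM on chow to 4.20, 3.35 and 3.63 on MCD without overlap, and Cry1 differed by -0.04. Of the D-box genes, Dbp (-2.60, adjusted p = 0.00139) and Tef (-1.50) fell, Nfil3 fell by 1.00, and Nr1d1 (-1.31, adjusted p = 3.75e-04) fell while Nr1d2 differed by 0.34 (adjusted p = 0.054). The repressors Bhlhe41 (-1.31), Bhlhe40 (-0.82) and Cipc (-0.67), and Usp2 (-1.17), Noct (-1.65), Klf10 (-0.85) and Upp2 (-1.84) fell as well. The genes that rose were Arntl (1.01, adjusted p = 0.00871), Npas2 (0.77), Csnk1e (1.24) and Nampt (0.82). By class, 12 of the day-to-dusk genes fell and 1 rose, and 2 of the dawn genes rose and 1, Nfil3, fell.

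In Pctp-/- mice, 7 of the 30 genes fell and 6 rose with MCD, beside 24.4% and 26.0% of all genes tested in limma. This comparison shares the Pctp-/- mice on chow with the knockout comparison on chow. Those that rose were Per3 (1.36, standard error 0.31, adjusted p = 0.00322), Nr1d2 (1.17, adjusted p = 3.69e-05), Csnk1e (1.12), Klf10 (1.00), Nampt (1.00) and Wee1 (0.79). Those that fell were Noct (-2.48, adjusted p = 4.9e-06), Nfil3 (-2.18, adjusted p = 9.28e-06), Per1 (-1.51), Cry1 (-0.84), Arntl (-0.79), Csnk1d (-0.39) and Cipc (-0.33). By class, 5 of the day-to-dusk genes rose and 3 fell, and 3 of the dawn genes fell and 0 rose. Without replicate 2 or 3 of the Pctp-/- mice on either diet, 8 of the 30 genes passed. Markers of several cell types moved with the diet too. Of the stellate cell markers 3 of 5 rose in WT and 2 of 5 in Pctp-/- mice, and the 1 lymphocyte marker tested, Ptprc, rose in both. Of the 4 hepatocyte markers 1 rose and 1 fell in WT and 2 rose and 1 fell in Pctp-/- mice. Of 4 bile duct markers 1 rose in WT and 1 fell in Pctp-/- mice, and of 4 endothelial markers 1 rose in WT mice and 0 passed in Pctp-/- mice. Of the macrophage markers all 5 rose in WT and 3 of 5 in Pctp-/- mice, their sum was 37.2 to 60.2 FPKM in WT and 33.1 to 81.3 in Pctp-/- mice on chow and 109 to 175 and 93.9 to 94.4 on MCD, and 0 of the 5 were at 0 throughout a group. On MCD the macrophage sums of the genotypes did not overlap. The part of these cell types in the results by diet, and by genotype on MCD, was not tested.

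**Figure D5:**
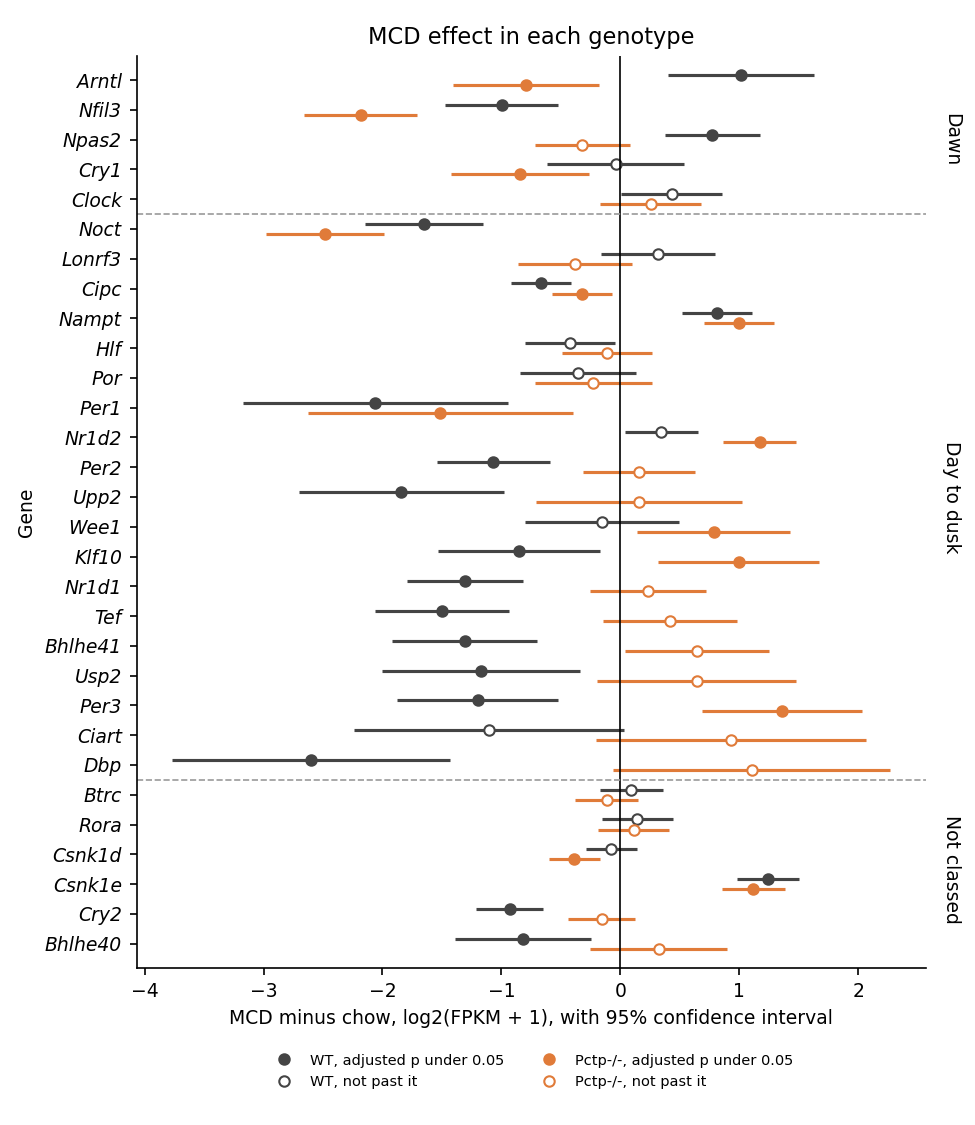
Log2 difference, MCD minus chow, on log2(FPKM + 1) for the 30 genes in WT (grey) and Pctp-/- mice (orange), with 95% confidence intervals from limma and filled points for an adjusted p under 0.05. Csnk1e, Nampt, Noct, Nfil3, Per1 and Cipc are filled on one side in both genotypes, while Arntl, Per3 and Klf10 are filled on opposite sides.

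The diet moved 9 of the 30 genes in both genotypes. For 6 of them the direction was shared, beside 40.8% of all genes tested, and for 3 it was opposite, beside 0.160%. Csnk1e rose and its values on the diets did not overlap, at 2.54, 2.64 and 3.25 FPKM on chow and 7.57, 8.99 and 7.47 on MCD in WT mice, and 2.27, 2.79 and 2.92 against 6.15, 7.03 and 7.68 in Pctp-/- mice. Nampt rose likewise, from 8.61 to 10.1 FPKM in WT and 6.34 to 9.63 in Pctp-/- mice on chow to 16.2 to 18.9 and 15.0 to 16.8 on MCD. Noct fell from 2.30 to 4.91 FPKM in WT and 5.63 to 7.54 in Pctp-/- mice on chow to 0.248 to 0.637 and 0.174 to 0.836 on MCD. Nfil3, Per1 and Cipc also fell in both genotypes. The other 3, Arntl, Klf10 and Per3, passed in opposite directions, as Arntl rose in WT and fell in Pctp-/- mice and Per3 and Klf10 fell in WT and rose in Pctp-/- mice. Over alternative fits, Per3 passed in both genotypes in 20 of 20. Arntl passed in WT mice in 20 of 20 and in Pctp-/- mice in 14 of 20, and Klf10 in each genotype in 17 of 21. With no filter, Arntl did not pass in Pctp-/- mice, nor Klf10 in WT mice. The Klf10 values of Pctp-/- mice on chow and on MCD overlapped. On MCD the Klf10 values of Pctp-/- mice, 7.70, 17.2 and 17.8 FPKM, overlapped those of WT mice, whose mean was 8.58 ± 3.09 (SD, n = 3). A further 10 genes passed in WT mice alone, beside 16.1% of all genes, which were Bhlhe40, Bhlhe41, Cry2, Dbp, Npas2, Nr1d1, Per2, Tef, Upp2 and Usp2, and 4 in Pctp-/- mice alone, beside 9.43%, Cry1, Csnk1d, Nr1d2 and Wee1. Passing in a single genotype does not show that the response differed. The remaining 7, Btrc, Ciart, Clock, Hlf, Lonrf3, Por and Rora, passed in neither, beside 33.5%.

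Whether the diet response differed between genotypes was tested directly, as the response in Pctp-/- mice minus that in WT mice, and 0 of the 30 genes passed, beside 0.0963% of all genes tested in limma. An unadjusted p under 0.05 was reached by 20 genes, of which 14 responded more positively and 6 more negatively in Pctp-/- mice, beside 15.1% of all genes. The smallest adjusted p values were those of Per3 (2.56, standard error 0.44, adjusted p = 0.0675), Tef (1.92, 0.0694), Bhlhe41 (1.95, 0.0775), Dbp (3.70, 0.0783), Nr1d1 (1.54, 0.0785) and Arntl (-1.81, 0.0953). The median was 1.22 over the day-to-dusk genes, 17 of 19 above zero, and -1.09 over the dawn genes, 5 of 5 below zero. This difference contains the knockout comparison on chow with its sign turned, from the same mice, so these signs are not a separate observation of it. The count of 0 became 5 without replicate 1 of the WT mice on chow, 3 without replicate 3 of the WT mice on MCD and 4 without replicate 1 of the Pctp-/- mice on MCD. Over all genes tested the count of 12 became 60, 60 and 27, in the same order. Rora had the smallest difference between the responses, -0.03 (95% interval -0.45 to 0.39).

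Of 40 other genes of the clock pathway, 38 were tested. By genotype on chow 0 passed, with 1 at an unadjusted p under 0.05, and on MCD 1 passed, Fbxl15, which encodes an F-box protein, lower in Pctp-/- mice (-0.75, adjusted p = 0.0431 from limma). With MCD 13 rose and 5 fell in WT mice and 12 rose and 5 fell in Pctp-/- mice. Of all genes tested, 34.5% rose and 22.5% fell in WT and 26.0% rose and 24.4% fell in Pctp-/- mice. By genotype, 6.98% of all genes reached an unadjusted p under 0.05 on chow, and 0.136% passed on chow and 0.818% on MCD. The counts of this list and of those after it are to be read against these shares. The genes of this list that MCD moved included Ppargc1a (1.04 and 1.35), a coactivator of ROR receptors, among those that rose, and the deacetylase gene Sirt6 (-0.94 and -0.80) among those that fell. Of 20 other rhythmic liver transcripts 0 passed by genotype on either diet, with 8 on chow at an unadjusted p under 0.05, and 4 rose and 8 fell with MCD in WT and 2 rose and 6 fell in Pctp-/- mice. Elovl3, a fatty acid elongase gene, fell most (-3.64 and -4.48). For the difference of the diet responses, 8 of the 20 reached an unadjusted p under 0.05, beside 15.1% of all genes, and 0 passed.

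Genes that mark feeding state and glucocorticoid action were read beside the clock. Of 8 genes raised by fasting and 5 tested genes raised by feeding, 0 passed by genotype on either diet, with 2 and 1 at an unadjusted p under 0.05 on chow. With MCD 3 of the fasting genes rose and 2 fell in each genotype, with Fgf21 and Pdk4 up and G6pc and Pck1 down, and of the feeding genes 1 rose and 3 fell in WT and 3 fell in Pctp-/- mice, Srebf1 and Fasn in both. Of 6 genes raised by glucocorticoids 1 passed by genotype on chow, Zbtb16 (-2.11, adjusted p = 1.89e-04 from limma), 0 passed on MCD, and Zbtb16 was also the 1 gene with a different diet response (2.14, adjusted p = 0.0144). By genotype on chow 3 of the 6 reached an unadjusted p under 0.05. The median difference of the 6 on chow was 0.54, opposite in sign to that of Zbtb16. With MCD 3 of the 6 rose and 1 fell in WT mice, and 1 rose and 1 fell in Pctp-/- mice. The part of feeding state and glucocorticoids in the clock gene differences was not tested.

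Position bears on how far single values can be taken. On GENCODE M21 (GRCm38), 21 of the 30 genes overlap another annotated gene, 6 of them on the same strand and 16 on the opposite strand. Per3 (chromosome 4, 151003652 to 151044665) overlaps Camta1 on its own strand, and Dbp (chromosome 7, 45705088 to 45710203), Nr1d1 and Bhlhe41 overlap Sphk2, Thra and Gm43909 on the other. The counting is not stated to use strand, so these values are uncertain. The genes on chromosome 11, which carries the disrupted Pctp, were Hlf at 0.334 Mb, Nr1d1 at 8.77 Mb, Per1 at 20.9 Mb and Csnk1d at 31.0 Mb from it. Hlf, the nearest, did not pass the test by genotype on either diet.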

How the data were processed

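Whole-liver RNA of 12 mice was sequenced by Novogene. The authors deposited 1 table of FPKM for each gene in each library, and a second table of read totals and mapping percentages per library, used only for depth. Per the labels the genome build was mm10; the aligner, counting tool and annotation are not given in the sources used here. Groups came from the labels of genotype and diet, and every column was assigned. No 2 of the 66 library pairs held identical values.

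limma 3.58.1 in R 4.3.3 was fitted to log2(FPKM + 1) for the 12466 genes whose mean over the libraries reached 0.5 FPKM, with 4 group means, the trend option and p-values adjusted by Benjamini-Hochberg over all of them. A gene passed when its adjusted p was below 0.05, whatever its fold. FPKM are not counts, so no count test was run, although the study names a Wald test. The fit was tested on simulated data. Replicates are different mice. Each p-value sets a difference of group means against the spread between mice, which limma pools over the 4 groups and moderates across genes. With 3 mice a group the number of mice, and at low FPKM the unknown number of reads per gene, limits precision. Labels share replicate numbers between groups without saying that they pair mice, and these were no block. Symbols and positions came from GENCODE M21, which held 34490 of 35275 identifiers, and promoter windows from RefSeq. All 30 genes are named; of further lists, those past the threshold with the largest differences may be. The genes, phase classes and lists were chosen with earlier results of these data known. Alternatives were the pseudocount, the filter, the scaling, a fit of 6 libraries, a replicate block, limma's trend and robust options, a minimum fold and leaving out each library. Figures were drawn with matplotlib 3.10.9.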

Additional observations from a re-analysis of the deposited data

How the results depend on the processing

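The 3 genes that passed by genotype on chow became 1, Dbp, with a minimum mean FPKM of 5, a filter that left Per3 and Bhlhe41 untested. The count was 1 with limma's robust option, 2 with a pseudocount of 0.1 and 3 with an absolute log2 difference of at least 1. It was 0 with no filter, with quantile or median-of-ratios scaling, with only the 6 libraries of the comparison, and with no trend. With a library left out the count ran from 0 to 7, beside 8 to 34 of all genes tested. Dbp passed in 5 of 21 alternatives and Per3 and Bhlhe41 each in 5 of 20, with adjusted p values from limma of 0.00729 to 0.265, 0.00334 to 0.265 and 0.0138 to 0.245. By genotype on MCD, the count was 0 in all 22 alternatives. The 19 genes changed by MCD in WT mice became 12 with an absolute log2 difference of at least 1, and 16 to 22 with a library left out. The 13 in Pctp-/- mice became 8 with a minimum mean FPKM of 5, under which only 18 of the 30 genes were tested. They became 6 with an absolute log2 difference of at least 1, and 8 to 15 with a library left out. For the difference of the diet responses the count was 0 to 5 with a library left out, beside 0 to 60 of all genes tested. With the replicate number as a block, the counts were 8 by genotype on chow, 0 on MCD, 24 and 16 for MCD in WT and Pctp-/- mice, and 7 for the difference of responses. Over all genes tested the counts with this block were 32, 115, 7202, 6430 and 59, in the same order. Neither the labels nor the methods say that a number links mice, and the numbers were to count as pairs only if every correlation of same-numbered libraries, over their deviations from the group means, exceeded 0.1. It was -0.0972 to 0.225 and over 0.1 in 8 of 18 pairs, so they were not treated as pairs. Libraries matched best with their own number in 21 of 36 cases, where 12 would be expected of numbers that carry nothing, which is a hint from the data and not from the design. Median-of-ratios scaling moved the median of all genes for MCD in WT mice from 0.11 to 0.0062. Among the differences of single genes that passed, 632 of 721 recomputed values kept their direction and side of the threshold, 89 kept the direction only and 0 reversed. Many of these alternatives leave the difference itself unchanged, so it could not reverse there. They are no filter, the trend and robust options, the block, the fit of 6 libraries, and leaving out a library of another group. The 721 values also pool the genes that passed by genotype on chow with those that passed by diet. The causes of these changes were not tested.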
